A study of Mus musculus with 13 samples.

Results

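The 10 genes described here are Adipoq, Lep, Retn, Cfd, Plin1, Cidec, Fabp4, Lipe, Pnpla2 and Pparg, which together make up a core set of genes used by fat cells. They were taken by symbol from the count table, which held all 10 among its 24421 gene symbols. RNA was measured in 13 libraries, 1 for each of 11 individual mammary tumors and of 2 glands free of cancer, all from female mice. Every mouse, the gland donors included, was FVB/N-TgN (MMTV-HER2/neu), line 202Mul/J. These mice carry a rat HER2/neu cDNA under the MMTV promoter, which is active in mammary epithelium, and form mammary tumors spontaneously; the labels nevertheless give the genotype as wild type. The gland donors (n = 2) and the donors of primary untreated tumors (n = 3) received no drug. Primary stavudine tumors (n = 3) arose in mice given stavudine, an inhibitor of reverse transcriptase, at 1 mg/mL in the drinking water. The HSP90 inhibitor 17-DMAG was injected at 20 mg/kg into mice that bore tumors, dosing went on after the tumors had regressed, and those that came back under it are the recurrent 17-DMAG tumors (n = 3). Where the mice drank stavudine as well, tumors that came back are called recurrent 17-DMAG plus stavudine (n = 2). In the study such mice began stavudine either before 17-DMAG or together with it, and the sample titles do not say which applied here. Ages at collection are not given in the sources used here. Nothing in the labels says whether tumors of a group came from different animals, so the p-values measure the spread between these samples.

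The mouse mammary gland is a thin tree of epithelial ducts set in a pad of white fat, and fat cells make up much of its bulk outside of lactation. A white adipocyte stores triglyceride in 1 large droplet, coats that droplet with dedicated proteins, breaks the fat down on hormonal demand, and secretes hormones and a complement protease into the blood. A tumor that grows in the pad displaces or encloses this tissue, and a piece of tumor taken for RNA can hold more or less of it. Some of the 10 genes, such as Adipoq and Lep, are close to restricted to adipocytes, whereas Pnpla2 and Lipe are used by many cell types that handle lipid. In bulk RNA, fewer adipocytes and less RNA per adipocyte cannot be told apart.

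Library totals ran from 39921388 to 56887708 counts. Levels are CPM (counts scaled to a common library size) after scaling by TMM factors, which were 0.4926 in gland 2 and 0.9986 to 1.125 in the other libraries. The glands differed from each other. In gland 2, 8 milk protein genes took 37.7% of all counts, against 3.16% in gland 1 and 0.49% to 2.47% in the tumors. The lymphocyte markers summed to 174.4 CPM in gland 1 and 5.92 CPM in gland 2, against 1.83 to 4.68 CPM in tumors. The summed level of 10 skeletal muscle genes was 1803 CPM in gland 2 and 6.69 CPM in gland 1. Among tumors it was highest in recurrent 17-DMAG plus stavudine tumor 2 (1715 CPM), primary untreated tumor 1 (1061 CPM) and recurrent 17-DMAG tumor 3 (468 CPM), and lowest in recurrent 17-DMAG tumor 2 (0.782 CPM). The luminal markers Krt8 and Epcam were present in every library, Krt8 at 255 to 637 CPM in tumors and 230.3 and 244.9 CPM in glands. Epcam was at 655.0 and 492.9 CPM in glands and 402.2 to 1236.2 CPM in tumors, with a tumor median of 1109.1 CPM. Its lowest value was that of recurrent 17-DMAG plus stavudine tumor 2. The p-values below come from edgeR's quasi-likelihood test with Benjamini-Hochberg adjustment over all genes tested, with calls made where the adjusted p was under 0.05.

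The stretches of 250 bases before the annotated start of Adipoq, Lep and Pnpla2 are shown first, because these genes mark the range of behavior found among the tumors: Adipoq followed the other fat cell genes, Lep followed them less closely, and Pnpla2 did not follow them. The sequences are from RefSeq on GRCm38.p6, at chr16:23146286-23146535 for Adipoq, chr6:29059971-29060220 for Lep (both plus strand) and chr7:141454938-141455187 for Pnpla2 (plus strand). Capitals mark matches on either strand to the CCAAT box, to the palindrome TTGCGCAA of the C/EBP type, to TATAAA, to the nuclear receptor motif AGGTCA, or to the DR1 motif, in which AGGTCA stands in direct repeat with 1 base between the copies.
Adipoq: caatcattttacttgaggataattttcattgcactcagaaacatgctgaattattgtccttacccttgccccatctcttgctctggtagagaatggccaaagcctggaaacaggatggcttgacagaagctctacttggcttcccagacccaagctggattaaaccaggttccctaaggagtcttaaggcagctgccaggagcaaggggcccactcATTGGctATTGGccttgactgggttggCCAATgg
Lep: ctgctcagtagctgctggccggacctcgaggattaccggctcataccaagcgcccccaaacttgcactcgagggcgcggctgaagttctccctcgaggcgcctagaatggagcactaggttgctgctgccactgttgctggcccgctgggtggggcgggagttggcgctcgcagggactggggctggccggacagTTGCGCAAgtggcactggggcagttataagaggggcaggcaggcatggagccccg
Pnpla2: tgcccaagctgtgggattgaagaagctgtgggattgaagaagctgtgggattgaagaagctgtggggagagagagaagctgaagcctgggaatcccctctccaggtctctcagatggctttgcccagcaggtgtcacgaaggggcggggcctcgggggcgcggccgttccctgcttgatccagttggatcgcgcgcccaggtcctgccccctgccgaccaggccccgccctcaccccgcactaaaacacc
The Adipoq stretch held 3 matches to CCAAT, a motif found in 33.8% of 32851 mouse promoter stretches of this length, and no CpG. The Lep stretch held 1 match to TTGCGCAA, found in 0.164% of all stretches, and 16 CpG. The Pnpla2 stretch held none of the 5 motifs and 12 CpG, against a median of 6 over all stretches. Of 13 stretches for 9 of the 10 genes, none held DR1 (0.0335% of all), 2 held AGGTCA (14.0% of all) and both of those belonged to Pparg, which has 3 annotated starts. Plin1, Retn and Cfd held 1, 2 and 2 CpG, and none of the 5 motifs. These matches describe the letters of the stretches and say nothing of binding.

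The glands held more RNA of all 10 genes than any tumor did. Comparing the 11 tumors with the 2 glands, 9 of 10 were called lower in tumors, against 8.81% of 17135 genes called lower, and Cfd missed the threshold with an adjusted p of 0.0542. The values of the 2 groups did not overlap for any of the 10, against 7.37% of all genes lower in tumors without overlap. The median log2 fold change over the 10 genes was -3.83, and over all genes tested it was -0.02. The smallest difference was that of Pnpla2 (-1.49) and the largest that of Cidec (-4.26). The margin between the lowest gland and the highest tumor was 1.52-fold for Lep, 1.83-fold for Pnpla2 and 7.74-fold for Cidec.

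**Figure D1:**
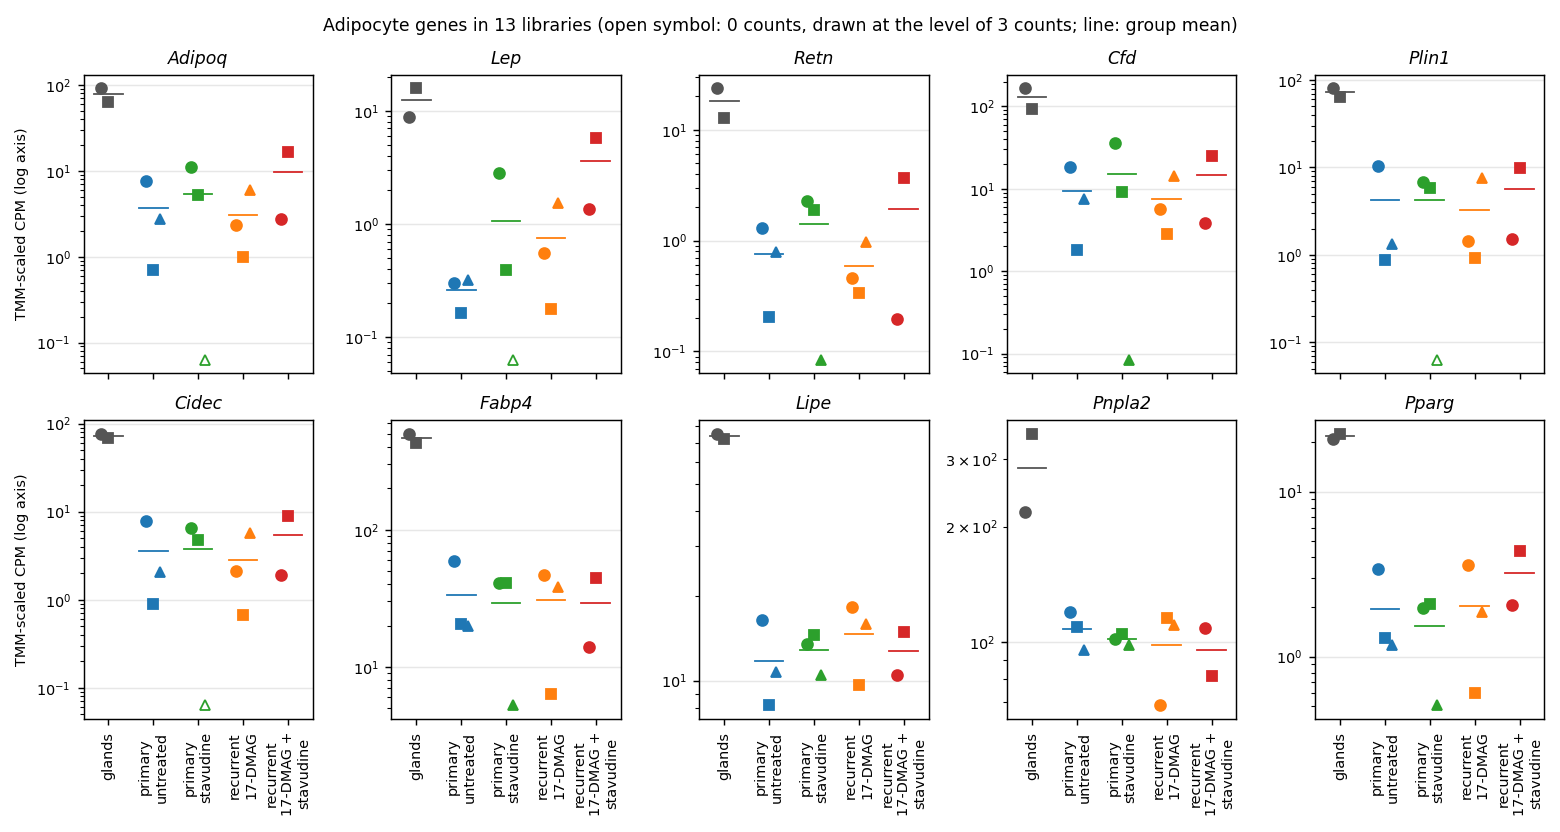
Level of each gene in 13 libraries, in TMM-scaled CPM on log axes that differ between panels, by group (glands n = 2, primary untreated n = 3, primary stavudine n = 3, recurrent 17-DMAG n = 3, recurrent 17-DMAG plus stavudine n = 2). Lines are group means, circle, square and triangle are replicates 1, 2 and 3, and open symbols mark 0 counts drawn at the level of 3 counts; both glands lie above all 11 tumors in all 10 panels.

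Adipoq encodes adiponectin, a hormone made by fat cells that promotes insulin sensitivity. Its level was 92.0 and 64.2 CPM in the glands. In the tumors it was 7.69, 0.693 and 2.73 CPM (primary untreated), 11, 5.27 and 0 CPM (primary stavudine), 2.36, 0.983 and 5.92 CPM (recurrent 17-DMAG), and 2.78 and 16.8 CPM (recurrent 17-DMAG plus stavudine). Tumors of the same group thus differed several-fold or more in every tumor group, and the 4 tumor groups overlapped. The highest tumor reached 21.6% of the gland mean and the median tumor 3.56%. Tumors were lower than glands by a log2 fold change of -3.98 ± 1.02 (SE; n = 11 and 2; edgeR adjusted p = 0.0353).

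Lep encodes leptin, the hormone by which fat stores signal to the brain. Its level was 8.85 and 15.9 CPM in the glands, the higher value being in gland 2, unlike Adipoq. It was 0.299, 0.163 and 0.321 CPM in primary untreated tumors and 2.81, 0.392 and 0 CPM in primary stavudine tumors. It was 0.556, 0.179 and 1.53 CPM in recurrent 17-DMAG tumors and 1.37 and 5.81 CPM in recurrent 17-DMAG plus stavudine tumors. Both tumors of the last group lay above all 3 primary untreated tumors, which was the 1 pair of tumor groups among 6 without overlap for Lep and the 1 such case among the 10 genes. In that pair 14.8% of 16870 genes were higher without overlap. Counts of Lep in tumors were low, from 0 to 285 reads. Tumors were lower than glands (log2 fold change -3.73 ± 0.95 SE, edgeR adjusted p = 0.0343).

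Retn (resistin, a secreted factor of mouse fat) and Cfd (adipsin, the complement factor D protease that fat cells secrete) had the same outline. Gland levels of Retn were 23.8 and 12.8 CPM. Its tumor levels ran from 0.0844 to 3.69 CPM, with a median of 0.782. Cfd was at 166 and 93.2 CPM in the glands. It was 18.6, 1.83 and 7.48 CPM in primary untreated, 36.2, 9.05 and 0.0844 CPM in primary stavudine, 5.74, 2.86 and 14.2 CPM in recurrent 17-DMAG, and 3.87 and 25.3 CPM in recurrent 17-DMAG plus stavudine tumors. The primary stavudine group held both the highest and the lowest tumor for Cfd, 429-fold apart, the lowest resting on 4 reads. Retn was called lower in tumors (-4.11 ± 0.85 SE, edgeR adjusted p = 0.015), and Cfd was not (-3.54 ± 1.03 SE, 95% interval -5.83 to -1.25, adjusted p = 0.0542).

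Plin1 (perilipin 1) coats the lipid droplet and gates access of lipases to it, and Cidec fuses droplets into large ones. Plin1 was at 81.0 and 63.6 CPM in the glands. In primary untreated tumors it was at 10.4, 0.876 and 1.32 CPM, in primary stavudine tumors at 6.82, 5.83 and 0 CPM, in recurrent 17-DMAG tumors at 1.44, 0.916 and 7.53 CPM, and in recurrent 17-DMAG plus stavudine tumors at 1.52 and 9.74 CPM. The tumors fell into low and high values inside each group, and no group was set apart. Cidec was at 76.4 and 68.8 CPM in the glands and at 7.77, 0.897 and 2.04 CPM (primary untreated), 6.58, 4.72 and 0 CPM (primary stavudine), 2.13, 0.67 and 5.65 CPM (recurrent 17-DMAG), and 1.92 and 8.89 CPM (recurrent 17-DMAG plus stavudine) in tumors. The order of tumors was close to that for Plin1. Both were called lower in tumors, Plin1 by -4.08 ± 1.08 (SE, edgeR adjusted p = 0.0388) and Cidec by -4.26 ± 0.99 (adjusted p = 0.024) on the log2 scale.

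Fabp4 encodes the fatty acid carrier of the adipocyte cytosol, which endothelial cells and macrophages also make. It had the highest level per transcript length of the 10 genes in the glands, 559 and 481 CPM per kilobase. Its level was 500.7 and 430.6 CPM in the glands. In tumors it was 59.3, 20.6 and 20.0 CPM (primary untreated), 41.2, 40.6 and 5.23 CPM (primary stavudine), 46.8, 6.3 and 38.3 CPM (recurrent 17-DMAG), and 13.9 and 44.3 CPM (recurrent 17-DMAG plus stavudine). The lowest tumor still had 248 reads of Fabp4, and the spread between tumors was 11.3-fold. Tumors were lower than glands by -3.94 ± 0.65 on the log2 scale (SE, edgeR adjusted p = 0.00604). The summed level of 9 endothelial genes was also higher in glands (332.7 and 370.4 CPM) than in tumors (79.4 to 332.2 CPM), and its part in the Fabp4 difference was not tested. The 8 macrophage genes summed to 261.8 and 717.7 CPM in glands and 187.2 to 844.2 CPM in tumors. Recurrent 17-DMAG tumor 1 was the highest tumor in both sums. Its endothelial sum (332.2 CPM) was close to that of gland 2 (332.7 CPM), and it held 46.8 CPM of Fabp4 and 2.36 CPM of Adipoq.

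Lipe (hormone-sensitive lipase) and Pnpla2 (adipose triglyceride lipase) release fatty acids from stored fat, Pnpla2 in the first step and Lipe in the next. Lipe was at 75.3 and 72.3 CPM in the glands and at 16.4, 8.17 and 10.7 CPM (primary untreated), 13.5, 14.5 and 10.5 CPM (primary stavudine), 18.3, 9.67 and 15.9 CPM (recurrent 17-DMAG), and 10.5 and 14.9 CPM (recurrent 17-DMAG plus stavudine) in tumors. Pnpla2 was at 218.4 and 349.1 CPM in the glands. Its tumor values were 119.5, 109.2 and 95.5 CPM, then 101.9, 105.2 and 98.4 CPM, then 68.4, 115.9 and 110.9 CPM, and 109.1 and 81.6 CPM, in the same order of groups. The tumors were close to each other in both genes: the highest was 2.24-fold above the lowest for Lipe and 1.75-fold for Pnpla2. The coefficient of variation over the 11 tumors was 25% and 14.9%, against 99.9% for Adipoq. Lipe fell by 2.51 ± 0.24 (SE, edgeR adjusted p = 0.000709) and Pnpla2 fell by 1.49 ± 0.19 (adjusted p = 0.00221) on the log2 scale in tumors against glands. The exons of Lipe overlap those of an antisense gene, 4732471J01Rik, and whether the counting used strand is not stated.

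Pparg encodes the nuclear receptor that drives adipocyte formation and switches on many of the other genes named here. It was at 20.8 and 22.4 CPM in the glands and at 3.38, 1.3 and 1.18 CPM (primary untreated), 1.98, 2.09 and 0.506 CPM (primary stavudine), 3.57, 0.603 and 1.87 CPM (recurrent 17-DMAG), and 2.05 and 4.34 CPM (recurrent 17-DMAG plus stavudine) in tumors. The spread between tumors, 8.58-fold, lay between that of the lipases and that of the secreted factors. Tumors were lower than glands by -3.37 ± 0.53 on the log2 scale (SE, edgeR adjusted p = 0.00499).

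With only the 3 primary untreated tumors against the same 2 glands, the 10 genes again did not overlap between groups, against 20.4% of genes lower without overlap, and their median log2 fold change was -3.95. Called were 2 of 10, against 1.83% of genes called lower: Lipe (-2.65 ± 0.33 SE, edgeR adjusted p = 0.0127) and Pnpla2 (-1.39 ± 0.25 SE, adjusted p = 0.0378). These are the 2 genes with the smallest fold changes and the smallest standard errors. The largest fold change, that of Lep (-5.55 ± 1.54 SE), had an adjusted p of 0.0759. DESeq2 called 6 of the 10. Both gland comparisons rest on the same 2 glands, and both share the primary untreated tumors.

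The calls against glands depended on single libraries for some of the genes. Leaving out each of the 13 libraries in turn, Fabp4, Lipe, Pnpla2 and Pparg were called in all 13 fits, Retn in 12, Cidec in 11, Adipoq and Lep in 6, Plin1 in 4 and Cfd in 2. Without gland 2, the milk-rich one, the log2 fold change of Pnpla2 was -1.03, and the calls of that fit are given further below. Without primary untreated tumor 3, 6 of the 10 were called, against 1176 of all genes tested. Without primary stavudine tumor 2 these numbers were 6 and 1296, and without primary stavudine tumor 3 they were 10 and 1223. With every library in, they were 9 and 1785. Leaving out the 3 tumors with the most skeletal muscle RNA was a choice made after seeing the data. The fold change of Plin1 was then -5.39, against -4.08 with all tumors, and the calls of that fit are given with their total further below.

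**Figure D2:**
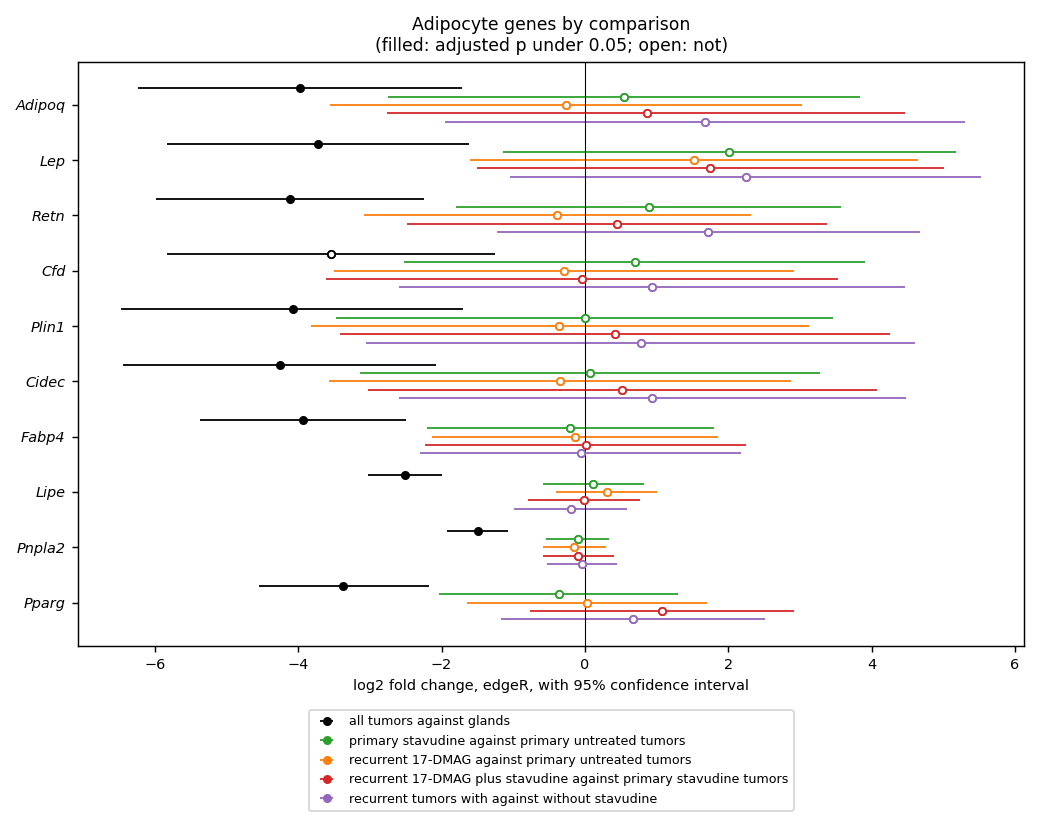
Log2 fold changes of the 10 genes with 95% confidence intervals from edgeR, for all tumors against glands and for 4 comparisons between tumor groups. Filled points are called at an adjusted p under 0.05; 9 of 10 genes are called lower in tumors than in glands, and none is called between tumor groups.

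Whether treatment or recurrence went with a change in fat cell RNA was asked in 4 comparisons between tumor groups, fitted on the 11 tumors and 16870 genes. None of the 10 genes was called by edgeR in any of them, none had an unadjusted p under 0.05, and DESeq2 called none. For edgeR the background was also empty, with 0% of genes called in each comparison. DESeq2 did call genes in each comparison, none of them among the 10, and their numbers are given below. An unadjusted p under 0.05 was found for 3.76% of genes for stavudine in primary tumors, 9.69% for recurrence without stavudine, 10.1% for recurrence under stavudine and 7.84% for stavudine in recurrent tumors. The compared groups overlapped for all 10 genes in all 4 comparisons, whereas 10.8%, 15.1%, 35.3% and 21.5% of all genes, in the same order, did not overlap. The comparisons share tumor groups and are not independent of each other.

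Primary stavudine tumors against primary untreated tumors gave a median log2 fold change over the 10 genes of 0.09, and of -0.03 over all genes. Adipoq differed by 0.54 ± 1.47 (SE), with a 95% interval from -2.75 to 3.84, which takes in differences of several fold in either direction. Pnpla2, the steadiest gene, differed by -0.098 ± 0.20 (95% interval -0.54 to 0.34), and Lipe by 0.11 ± 0.31 (-0.59 to 0.82). Lep had the largest value, 2.01 ± 1.40 (-1.14 to 5.17, edgeR adjusted p = 1), and it was -0.42 without primary stavudine tumor 1. For recurrent 17-DMAG against primary untreated tumors the median was -0.21, with Adipoq at -0.27 ± 1.47 and Lep at 1.52 ± 1.39.

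Recurrent 17-DMAG plus stavudine against primary stavudine tumors gave a median of 0.43 over the 10 genes and 0.01 over all genes. Pparg differed by 1.07 ± 0.82 (SE; 95% interval -0.77 to 2.91, edgeR adjusted p = 0.643). Recurrent tumors with against without stavudine gave a median of 0.86, with Lep at 2.24 ± 1.46 (-1.04 to 5.53, adjusted p = 0.789) and Adipoq at 1.67 ± 1.61 (-1.96 to 5.30). In this comparison Adipoq was at -0.16 without recurrent 17-DMAG plus stavudine tumor 2, 1 of the 2 tumors in its group. The interaction of recurrence and stavudine was called for none of the 10 genes by edgeR, none had an unadjusted p under 0.05 (7.84% of all genes), and for Adipoq it was 1.13 ± 2.18 with an interval from -3.78 to 6.03.

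Tumors of the same group differed widely. Primary stavudine tumor 3 was the lowest of the 11 tumors for 8 of the 10 genes. It had no read of Adipoq, Lep, Plin1 or Cidec among 45126443 counts, and 4 reads each of Retn and Cfd. With 3 counts as the limit, 0 reads allow up to 0.06326 CPM for each gene. That limit is too low if both reads of a pair were counted. The other 10 tumors had 34 to 826 reads of Adipoq. Yet it had 4667 reads of Pnpla2 and 500 of Lipe, and its levels of these were 91.8% and 75.3% of the median of the other tumors. For Pparg it was at 25.1% and for Fabp4 at 13.3% of that median. The 2 other primary stavudine tumors held 11 and 5.27 CPM of Adipoq, above 9 and 6 of the other tumors.

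At the other end, recurrent 17-DMAG plus stavudine tumor 2 was the highest tumor for 5 of the 10 genes and primary untreated tumor 1 for 3, and each was among the top 3 tumors for 8 genes. Both also had the highest skeletal muscle RNA among tumors, 1715 and 1061 CPM, while primary stavudine tumor 1, the highest for Cfd and the second for Adipoq, had 1.54 CPM. The 7 luminal genes summed to 1412 CPM in recurrent 17-DMAG plus stavudine tumor 2, below both glands (1728 and 1483 CPM). In the other tumors they summed to 2268 to 2854 CPM. Recurrent 17-DMAG tumor 2 was among the lowest 3 tumors for 8 genes and primary untreated tumor 2 for 7. The high tumors named were thus from the recurrent 17-DMAG plus stavudine, primary untreated and primary stavudine groups. The low ones were from the primary stavudine, recurrent 17-DMAG and primary untreated groups.

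**Figure D3:**
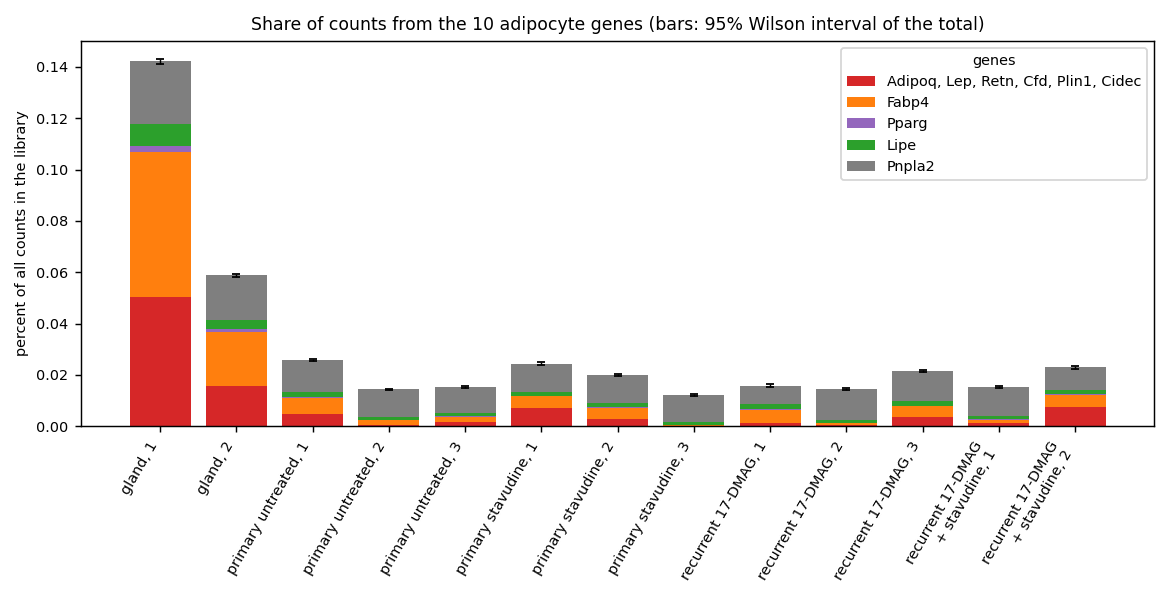
Share of all counts of a library that came from the 10 genes, in percent, stacked as 5 segments (6 fat cell genes together, then Fabp4, Pparg, Lipe and Pnpla2) and grouped by sample group; error bars are 95% Wilson intervals of the total. Glands are at 0.142% and 0.0588%, the tumors at 0.0121% to 0.0259%, and Pnpla2 is the largest segment of each tumor bar.

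Summed over the 10 genes, the share of library counts was 0.142% (95% Wilson interval 0.141 to 0.143) in gland 1 and 0.0588% (0.0581 to 0.0594) in gland 2. Without the milk protein genes in the total, these shares were 0.147% and 0.0943%. In tumors the share ran from 0.0121% (0.0118 to 0.0124) in primary stavudine tumor 3 to 0.0259% (0.0255 to 0.0264) in primary untreated tumor 1. Pnpla2 was the largest part of the sum in every tumor, giving 37.9% to 85.7% of the member counts in tumors and 17.3% and 29.3% in glands. The 6 genes Adipoq, Lep, Retn, Cfd, Plin1 and Cidec alone took 0.0504% and 0.0157% in the glands. In tumors they took from 1.77e-05% (8 reads) in primary stavudine tumor 3 to 0.00748% (3449 reads) in recurrent 17-DMAG plus stavudine tumor 2. Intervals cover counting error only, and they are too narrow here, since 73.0% to 76.6% of the low counts (1 to 9) were even numbers in each library, as when both reads of a pair are counted.

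Most of the fat cell genes varied together from tumor to tumor. Over the 11 tumors, log2 CPM of Adipoq was compared with that of the other 9 genes and with the mean of 6 marker lists for other cells, 15 relations in all. Cidec (Pearson r = 0.99, Spearman rho = 0.95), Cfd (0.99 and 0.96) and Plin1 (0.97 and 0.95) followed it most closely, with two-sided permutation p of 2e-05, 1e-05 and 2e-05 for r (adjusted p = 0.0001 for each) and 9e-05, 3e-05 and 7e-05 for rho (adjusted p = 0.00045 for each). The value 1e-05 is the smallest that 100000 permutations can give. Leaving out the 2 tumors farthest from the median of Adipoq, primary stavudine tumor 3 and recurrent 17-DMAG plus stavudine tumor 2, r was 0.97, 0.96 and 0.91.

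Retn (r = 0.87, rho = 0.88, permutation p = 3e-05 and 0.00063, adjusted p = 0.000112 and 0.00236) and Lep (r = 0.86, rho = 0.82, permutation p = 0.00041 and 0.0032, adjusted p = 0.00123 and 0.0096) followed Adipoq as well, and without those 2 tumors r was 0.85 and 0.68. Fabp4 (r = 0.82, rho = 0.67, permutation p = 0.00145 and 0.0273, adjusted p = 0.00362 and 0.0531) and Pparg (r = 0.80, rho = 0.67, permutation p = 0.00174 and 0.0283, adjusted p = 0.00373 and 0.0531) passed on r and not on rho. Lipe did not pass (r = 0.58, rho = 0.56, permutation p = 0.0506 and 0.0768, adjusted p = 0.0844 and 0.115). Without the same 2 tumors, r was 0.71 for Lipe, 0.71 for Fabp4, 0.59 for Pparg and 0.06 for Pnpla2, against 0.68 for Lep. Pnpla2 showed no relation (r = -0.07, rho = 0, permutation p = 0.83 and 1, adjusted p = 0.83 and 1).

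Of the 6 lists for other cells, only that for skeletal muscle passed (r = 0.65, rho = 0.78, permutation p = 0.0204 and 0.00629, adjusted p = 0.0383 and 0.0157; r = 0.61 without the 2 tumors). The other 5, for endothelium, macrophages, adipocyte progenitors and stroma, milk proteins and luminal epithelium, had r between 0.06 and 0.53, rho between -0.10 and 0.59, and adjusted p of 0.102 or more by either measure. In primary stavudine tumor 3, 5 of the 10 muscle genes had no read (Myh1, Tnnt3, Tnni2, Actn3 and Pvalb). It was not alone in this: 5 had none in recurrent 17-DMAG tumor 2, 4 in primary untreated tumor 2 and 2 in primary stavudine tumor 1. The part of muscle-rich tissue in the levels of the fat cell genes was not tested.

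**Figure D4:**
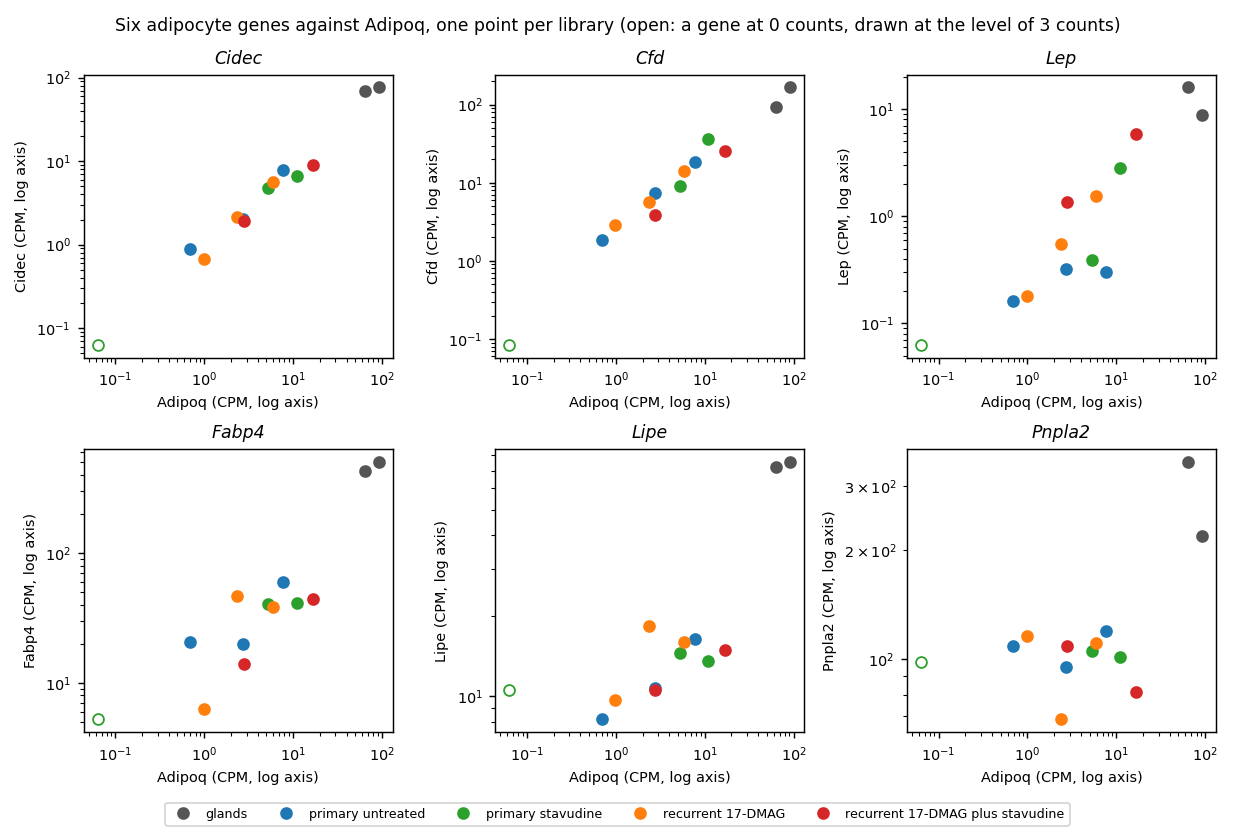
Levels of 6 of the genes against Adipoq, 1 point per library, in TMM-scaled CPM on log axes, colored by group; open points have a gene at 0 counts and are drawn at the level of 3 counts. Cidec and Cfd lie near a line with Adipoq over the glands and the tumors that had Adipoq reads. Lep scatters around that line, and Pnpla2 shows no trend over the 11 tumors. Primary stavudine tumor 3 has 0 counts of Adipoq and Cidec, so its place is set by the drawing level, and its Cfd rests on 4 reads.

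Ratios of reads to Adipoq in the same library restate this division, since they are made from the same counts. Cfd gave 1.39 to 3.30 reads per Adipoq read in the 10 tumors that had Adipoq, and 1.81 and 1.45 in the glands. Pnpla2 gave 4.85 to 158 reads per Adipoq read in tumors and 2.37 and 5.43 in glands. Lep gave 0.0389 to 0.493 in tumors and 0.0962 and 0.248 in glands, so its ratio differed between the 2 glands by more than that of Cfd. The highest Lep ratios, 0.493 and 0.345, were those of the 2 recurrent 17-DMAG plus stavudine tumors, a description for which no test was made.

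Outside the 10 genes, those whose pattern over the 11 tumors was most like Adipoq were Car3 (Pearson r = 0.993), Pck1 (0.936), Plin4 (0.931), Cyp2e1 (0.925), Slc36a2 (0.918), Fmo1 (0.916), Maob (0.906), Rbp4 (0.899), Slc7a10 (0.898) and Bmp3 (0.897), out of 16860 genes. This is a ranking over tumors that share scaling and depth, given as a description. Car3, a carbonic anhydrase abundant in fat and muscle, was at 597.0 and 477.1 CPM in glands and 0.127 to 143.3 CPM in tumors. Of these 10 genes, 7 had no read in primary stavudine tumor 3, while Plin4 had 115, Car3 had 6 and Slc36a2 had 4. By the same measure, Plin1, Cidec and Cfd would rank after 1 gene, Pparg 55th, Lipe 521st and Pnpla2 9915th.

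The other genes of fat metabolism were mostly lower in tumors than in glands too. Of 14 tested genes for fatty acid uptake and triglyceride assembly, 12 were called lower and none higher (median log2 fold change -2.91), among them Lpl, the lipase that frees fatty acids from blood lipoproteins (-5.34 ± 0.59 SE, edgeR adjusted p = 0.0011), and Agpat2, an acyltransferase of triglyceride synthesis (-2.06 ± 0.21, adjusted p = 0.000799). Of 11 genes for fatty acid synthesis, 8 were called lower (median -3.38), such as Acaca, acetyl-CoA carboxylase (-4.28 ± 0.40, adjusted p = 0.000709). Lactating epithelium also uses these pathways, and gland 2, the milk-rich one, was the higher gland: Lpl was at 3129 CPM there, 497 CPM in gland 1 and 13 to 89.7 CPM in tumors, and fatty acid synthesis genes summed to 61209 CPM in gland 2 and 14105 CPM in gland 1, against 4315 to 6239 CPM in tumors. The part of secretory epithelium in these differences was not tested.

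Of 13 lipid droplet and lipolysis partners, 7 were called lower and 1 higher (median -1.39), where 8.81% of all genes were called lower and 1.6% higher. Cidea, a droplet protein of brown fat and of lactating epithelium, was lower (-8.42 ± 1.07 SE, edgeR adjusted p = 0.00204). Its level was 1822.8 CPM in the milk-rich gland 2, 24.5 CPM in gland 1 and 0.46 to 8.22 CPM in tumors, so the size of this fold change rests mostly on gland 2. Also lower was Abhd5, the co-activator of the lipase encoded by Pnpla2 (-2.46 ± 0.43, adjusted p = 0.00777). Plin3, a droplet coat protein made in most cells, was higher (0.94 ± 0.20, adjusted p = 0.0179). Of 12 adipogenic regulators, 5 were called lower and 1 higher (median -1.16), with Klf15 at -3.59 ± 0.57 (adjusted p = 0.00493) and Cebpb at 0.72 ± 0.15 (adjusted p = 0.0146).

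Of 12 receptors and hormone response genes, 6 were called lower (median -2.26), including Hcar1, the lactate receptor of fat cells (-4.25 ± 0.61 SE, edgeR adjusted p = 0.00315), and of 7 other adipokines 2 were, among them Nrg4 (-2.27 ± 0.26, adjusted p = 0.00121). Of 9 brown and beige adipocyte genes 1 was called lower, close to the 8.81% of all genes. All 9 had a fold change below 0, with a median of -2.01, against -0.02 over all genes. Of 8 progenitor and stroma genes 3 were called lower (median -0.97), with Pdgfra at -1.87 ± 0.37 (edgeR adjusted p = 0.0121). Among the marker lists for other cells, 6 of 8 milk protein genes, 4 of 9 endothelial genes and 7 of 7 tested lymphocyte genes were called lower in tumors, the last with a gland level carried by gland 1. Of 7 luminal genes, 1 was called lower (Krt19), 2 had a fold change below 0, and the median was 0.62. Of 8 macrophage and 10 muscle genes, 0 were called by edgeR (0 of each at an unadjusted p under 0.05). The fold change was still below 0 for 7 of the 8 macrophage genes (median -0.43). It was below 0 for all 10 muscle genes (median -2.03), whose sums differed widely between the glands (6.69 and 1803 CPM). In the 4 comparisons between tumor groups, no gene of any of the 14 lists was called by edgeR.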

How the data were processed

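Total RNA of 11 mouse mammary tumors and 2 glands was depleted of ribosomal RNA and sequenced. The authors deposited raw counts per gene symbol, made with STAR on GRCm38 (mm10, UCSC annotation) and featureCounts (Subread 1.6.2, per the submitters' processing notes); the strand, pair and multimapper settings of the counting are not given in the sources used here. No count column was left unused.

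Counts were tested with edgeR 4.0.16 in R 4.3.3: filterByExpr on groups, TMM factors, robust quasi-likelihood fits and Benjamini-Hochberg adjustment within a comparison, two-sided. Gland comparisons used 13 libraries (17135 genes) and tumor comparisons 11 (16870 genes), each group with its own mean; all tumors against glands weighted the 4 tumor groups equally. DESeq2 1.42.0, RLE size factors, no filter, a table without milk protein genes, a replicate block and leaving out each library were alternatives. Log2 CPM used a prior count of 2, lengths came from GENCODE vM21 transcripts with a CCDS tag, and 3 counts were the limit of detection. Permutations were run in Python 3.11.15. The tests were tested on simulated data. No deposited pair of replicates agreed within sampling noise.

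All 10 genes were described in every comparison; of 14 other lists (137 genes) up to 4 genes per comparison could be named, those named being from the 2 with the lowest p in each direction among called genes of a list. Likeness was Pearson's r with Adipoq over tumors. Members and lists were chosen with earlier results of these data known, so their counts and medians are descriptions.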

Additional observations from a re-analysis of the deposited data

How the results depend on the processing

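All 10 genes were lower in tumors than in glands under every alternative run, in both gland comparisons. In primary untreated tumors against glands, 2 of the 10 were called in the reported fit and 6 by DESeq2, 0 without the 3 muscle-rich tumors, and 0 to 4 when 1 library was left out; all genes called were 361, then 2352, 0 and 0 to 3381. In all tumors against glands, 9 of the 10 were called, 5 without the muscle-rich tumors and 4 (without gland 2) to 10 (without primary stavudine tumor 3) when 1 library was left out; all genes called were 1785, then 3242 by DESeq2, 285 without the muscle-rich tumors and 535 to 4255. Leaving out these 3 tumors, a choice made after seeing the data, leaves fewer samples; a fit left with 1 gland or 1 tumor in a group takes it to vary like the other groups, and the cause of the other shifts was not tested. In the tumor comparisons edgeR called 0 genes, and DESeq2 called 17 (stavudine in primary tumors), 61 (recurrence without stavudine), 331 (recurrence under stavudine) and 277 (stavudine in recurrent tumors), none of them among the 10. When 1 tumor was left out, edgeR called 0, 0 to 1, 0 to 100 and 0 to 141 genes, the higher counts without recurrent 17-DMAG plus stavudine tumor 1 in the last 2.

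Replicate numbers are shared between groups, but the samples share only a number: over 23 same-number pairs the correlation of deviations from group means ran from -0.29 to 0.22, 3 were over 0.1, and 2 libraries correlated best with their own number. With the replicate block, 0 of the 10 genes and 4 genes in all were called in primary untreated tumors against glands, and 4 of the 10 and 371 in all in all tumors against glands. The block turned the sign of uncalled log2 fold changes for Plin1 in primary stavudine against primary untreated tumors (0.12), for Cfd (0.025), Adipoq (0.0032), Fabp4 (0.048) and Plin1 (0.19) in recurrent 17-DMAG against primary untreated tumors, and for Cfd (0.76) in recurrent 17-DMAG plus stavudine against primary stavudine tumors.

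Signs between tumor groups were not stable. Plin1 in primary stavudine against primary untreated tumors, at -0.0017, became 0.005 with RLE factors, 0.0058 with DESeq2, 0.019 with no filter and 0.018 without milk protein genes. Fabp4 in recurrent 17-DMAG plus stavudine against primary stavudine tumors, at 0.007, became -0.021 with no filter and -0.028 without milk protein genes. Leaving out 1 tumor gave log2 fold changes of both signs for most genes. In primary stavudine against primary untreated tumors the ranges were -1.04 to 1.69 (Cfd), -0.50 to 1.66 (Adipoq), -0.55 to 0.50 (Fabp4), -0.42 to 2.60 (Lep), -0.61 to 1.35 (Cidec), -0.66 to 0.28 (Pparg), -0.071 to 0.43 (Lipe) and -0.54 to 1.93 (Plin1). In recurrent 17-DMAG against primary untreated tumors they were -1.12 to 0.70 (Cfd), -1.16 to 0.84 (Adipoq), -0.57 to 0.57 (Fabp4), -1.36 to 0.93 (Cidec), -0.66 to 0.68 (Pparg), -1.85 to 1.57 (Plin1), -0.25 to 0.075 (Pnpla2) and -0.95 to 0.24 (Retn). In recurrent 17-DMAG plus stavudine against primary stavudine tumors they were -1.98 to 1.68 (Cfd), -0.97 to 1.90 (Adipoq), -1.07 to 0.60 (Fabp4), -0.98 to 1.23 (Cidec), -0.29 to 0.20 (Lipe), -1.47 to 1.20 (Plin1), -0.33 to 0.094 (Pnpla2) and -2.86 to 1.36 (Retn). In recurrent tumors with against without stavudine they were -0.98 to 1.77 (Cfd), -0.16 to 2.56 (Adipoq), -1.14 to 0.53 (Fabp4), -0.56 to 1.95 (Cidec), -0.48 to 0.016 (Lipe), -1.12 to 2.27 (Plin1), -0.27 to 0.15 (Pnpla2) and -1.58 to 2.63 (Retn).

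With 2 or 3 tumors in a group, the intervals between tumor groups took in differences of several fold for Adipoq, Lep, Retn, Cfd, Plin1 and Cidec. Counts under 10 in primary stavudine tumor 3 limit 6 of the 10 genes there. The mean share of counts changed from 0.1% to 0.121% in glands when milk protein genes left the total, less than its SD of 0.0588, and from 0.0184% to 0.0186% in tumors.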

Other observations

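Ucp1, the uncoupling protein that marks brown and beige fat cells, was at 27.6 and 98.1 CPM in the glands. In tumors its median was 0.185 CPM, and it reached 36.7 CPM in primary untreated tumor 1, a tumor that was also high in Adipoq and in muscle RNA. It was at 1.06 CPM in recurrent 17-DMAG plus stavudine tumor 2, which had the highest Adipoq of the tumors, and at 0 in primary stavudine tumor 3. The gene was singled out after its values were seen, and no comparison between groups was called for it.

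Pck1, which supplies glycerol for triglyceride assembly in fat cells, was at 180.4 and 137.0 CPM in glands, reached 37.2 CPM in primary untreated tumor 1 and was at 7.91 CPM in recurrent 17-DMAG plus stavudine tumor 2. Adrb3, the adrenergic receptor that starts lipolysis in rodent fat, was at 16.4 and 12.3 CPM in glands and highest among tumors in recurrent 17-DMAG plus stavudine tumor 2, at 3.53 CPM.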
